A study of Mus musculus with 8 samples.

Results

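Smooth muscle contracts when filaments of myosin slide along filaments of actin, and it uses its own forms of both proteins. In the testis these forms are best known from peritubular myoid cells, flat contractile cells that wrap each seminiferous tubule and move sperm and fluid along it, and from the muscle of blood vessel walls. Contraction starts when calcium and calmodulin turn on myosin light chain kinase, which phosphorylates the regulatory light chain of myosin, and it ends when myosin phosphatase removes the phosphate. Calponin, transgelin and tropomyosin sit along the actin filaments, and desmin forms the intermediate filaments that tie the contractile units to the cell's scaffold. The genes described here are 9 such genes picked by symbol under the working name of peritubular myoid contractile genes, namely Acta2, Actg2, Myh11, Myl9, Mylk, Cnn1, Tagln, Tpm2 and Des. All 9 were found among the 23983 genes of the deposited table. Each has a mean of at least 1 FPKM over the 4 libraries, the limit used below for counting genes. FPKM is fragments per kilobase of transcript, divided by a factor for each library. Because Actg2 went its own way, the 9 are called smooth muscle contractile genes below, and not genes of a cell type.

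RNA came from pieces of whole testis of wild-type C57BL/6J mice on postnatal days d12, d16 and d24 and from adults whose age in days the labels do not give. The first wave of sperm formation passes through these ages, so that meiotic and then haploid cells are added to a tubule wall already in place. Each stage is 1 library, so no difference between stages has a replicate check, and a gene counts as higher or lower at a 2-fold difference or more. The 4 libraries of H3K27Ac ChIP-seq from the same stages are not analysed here.

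Values carry 95% intervals in parentheses, which come from the number of fragments behind each value and cover counting error only. By these numbers genes drew 8907469 fragments at d12, 9445981 at d16, 23680900 on d24 and 12049011 in the adult. The d24 library was thus the deepest, and low genes are least precise in the adult library. For a transcript of 1 kb, 3 fragments correspond to 0.240 FPKM at d12 and at d16, 0.137 on d24 and 0.337 in the adult.

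Of the 9 genes, 8 had lower FPKM in adult testis than at d12, and Actg2 had a far higher one. From d12 to adult, 7 of the 9 fell at least 2-fold, against 23.1% of the 13901 genes counted, and 1 of the 9 rose at least 2-fold, against 35.7%. The median log2 ratio of the 9 was -1.34, that of Tagln (-1.58 to -1.12), while the median of all genes counted was 0.20, so the contractile genes lay 1.54 log2 units below it (members minus all genes: -1.54). In whole tissue, fewer cells of a type and less RNA per cell cannot be told apart.

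The scale between libraries matters for every fold given here. Summed over all genes, FPKM came to 283580 at d12, 307964 at d16, 472726 on d24 and 659202 in the adult. When each library was set to the same FPKM sum, the all-gene median from d12 to adult shifted by -1.20 log2 units, and with the upper quartile it shifted by -0.92. Division by the geometric mean of 6 Sertoli cell markers shifted it by 1.39. Of the 8 genes other than Actg2, on the Sertoli scale only 4 were below their d12 value and 4 were above it, whereas all 8 were below it on the other scales. Of the 9, 8 fell at least 2-fold with equal sums and with the upper quartile, where Des passes the limit too, and 0 did on the Sertoli scale. The shares of genes called lower and higher from d12 to adult were 49.9% and 23.2% with equal sums, 43.8% and 25.5% with the upper quartile, and 3.46% and 62.7% on the Sertoli scale.

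**Figure D1:**
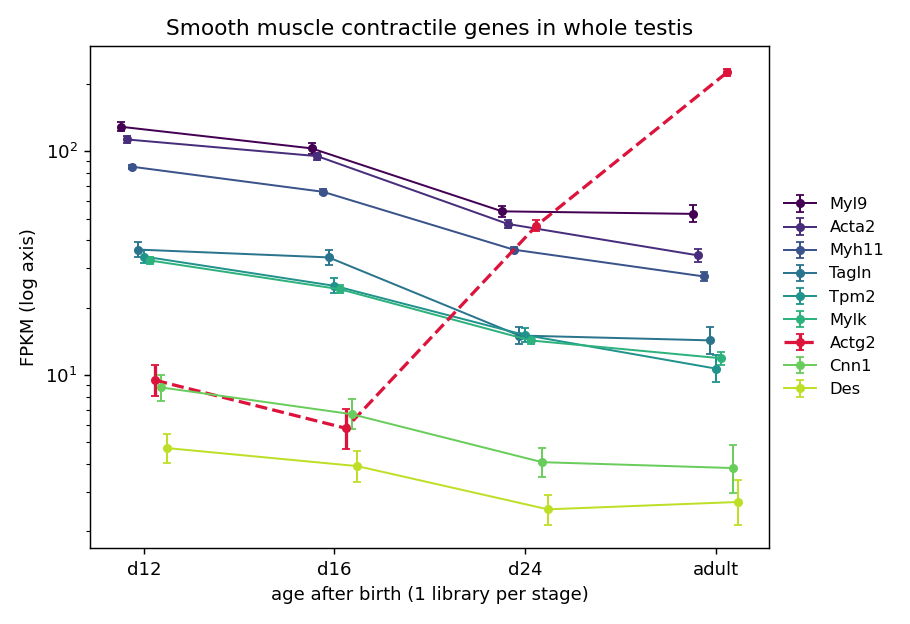
FPKM (log axis) of the 9 smooth muscle contractile genes at d12, d16, d24 and in adult testis, 1 library per stage, with 95% counting intervals as bars and small sideways shifts so that points do not hide each other. Solid lines run downward from d12 to d24 for 8 genes, and the dashed line of Actg2 climbs from 5.78 FPKM at d16 to 225 in the adult.

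The change was not spread evenly over the ages. From d12 to d16 none of the 9 was 2-fold lower, against 3.67% of all genes counted, and none was 2-fold higher, against 12.6%. As deposited, all 9 had a lower value at d16 than at d12, with a median log2 ratio of -0.37 beside 0 for all genes. From d16 to d24, 2 of the 9, Acta2 and Tagln, fell at least 2-fold, against 8.45% of genes, and Actg2 alone rose, against 27.5%. The median of the 9 in this interval was -0.76, and that of all genes was 0.13. From d24 to adult none was 2-fold lower, against 2.2% of genes, and again 1 of the 9, Actg2, was 2-fold higher, against 11.4%. The median of the 9 was then -0.09, close to the -0.02 of all genes. For the 8 without Actg2 it was -0.17, with single values from -0.49 for Tpm2 to 0.11 for Des. From d12 to adult the median of these 8 was -1.39, so most of their difference had been reached by d24.

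The calls between neighbouring ages depend on the scale too. From d16 to d24, 30.2% of genes were called lower and 19.4% higher with equal FPKM sums, with the upper quartile 26.5% and 20.3%, and on the Sertoli scale 1.63% and 39.9%. Of the 9 members, 8 were called lower in this interval with equal sums, 8 with the upper quartile and 0 on the Sertoli scale. From d12 to d16 the same 3 scales gave 5.78% and 11.7%, 5.99% and 11.4%, and 1.46% and 18.1%. From d24 to adult they gave 10.0% and 6.63%, 4.27% and 8.50%, and 0.669% and 20.6%. The all-gene median shifted under them by -0.61, -0.52 and 0.54 log2 units from d16 to d24, by -0.11, -0.14 and 0.32 from d12 to d16, and by -0.47, -0.25 and 0.49 from d24 to adult. On the Sertoli scale the direction turned for some members. There Acta2 (0.12), Des (0.093), Tagln (0.25) and Myl9 (0.044) were higher at d16 than at d12. From d24 to adult Acta2 (0.027), Myh11 (0.095), Mylk (0.23), Cnn1 (0.40), Tagln (0.42) and Myl9 (0.46) were higher on it.

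Acta2 encodes smooth muscle alpha-actin, the protein most used to stain peritubular myoid cells in sections. It lies on the minus strand of chromosome 19 at 34240336 to 34255585 (GRCm38.p6, as are all positions here, with predicted transcripts included in the span of a gene) and has 9 exons. Acta2 measured 113 FPKM at d12 (109 to 117), 95.1 at d16 (91.8 to 98.6), 47.3 on d24 (45.5 to 49.1) and 34.2 in the adult (31.9 to 36.7). The intervals of the 4 stages do not overlap, and as deposited each stage is below the one before it, but not on the Sertoli scale. The adult level was 0.303 times the d12 level (0.280 to 0.328), the lowest ratio of the 9 genes, though its interval overlaps those of Myh11, Tpm2 and, barely, Cnn1. At d12 the gene ranked 342nd of all genes in its library by FPKM, with 98.6% of genes below it, and in the adult it ranked 3438th with 85.7% below.

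Actg2 encodes the other smooth muscle actin, gamma-actin of the gut and bladder wall, which is also known from haploid germ cells of the mouse testis. The gene has 9 exons on the minus strand of chromosome 6, from 83512909 to 83536251. It had 9.47 FPKM at d12 (8.05 to 11.1), 5.78 at d16 (4.68 to 7.07), 46.5 on d24 (44.0 to 49.1) and 225 in the adult (216 to 234). Its lowest library is thus d16 and its highest is the adult, in which it stood above all 8 others. From d16 to d24 the level grew 8.04 times (6.53 to 10.0), and from d24 to adult it grew 4.84 times (4.53 to 5.17). From d12 to d16, in contrast, it was lower as the rest were on the deposited scale, at 0.610 times its d12 level (0.468 to 0.792). This was the lowest ratio of the 9 between these ages, though its counting interval overlaps those of Cnn1, Des, Tpm2, Mylk, Myh11 and Myl9. On the Sertoli scale it was lower too (-0.34), while Acta2, Des, Tagln and Myl9 were higher. The fragments behind these values number 156, 95, 1343 and 2637, so counting error is small beside the rise. On the scale of equal FPKM sums the log2 ratio from d12 to adult was 3.34, with the upper quartile 3.63 and on the Sertoli scale 5.96, against 4.56 as deposited, so the rise held on each of these scales.

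Actins are close in sequence, so reads could be credited to the wrong gene. None of the 1266 stretches of 50 bases in the Actg2 transcript, the read length of the libraries, occurs in a curated RefSeq transcript of another gene. With up to 2 changed bases allowed, 5.37% of the stretches match another actin, mostly the cardiac actin Actc1 (4.03%) and the skeletal actin Acta1 (2.45%), and none match Acta2. Both of these actins had almost no signal, Acta1 at most 0.162 FPKM and Actc1 at most 0.0807. Of the Actg2 stretches, 4 match the cytoplasmic actin Actb and 1 matches Actg1 in this way. Of the 2523 stretches of the Acta2 transcript, 7 occur unchanged in the cytoplasmic actin Actg1 and in no other gene. With up to 2 changed bases 1.43% match another actin, 28 of them Actg1, 13 Actb and 8 Acta1.

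Within a library the balance of the actins can be read without any scaling between stages. Acta2 took 17.4% of the summed FPKM of Acta2, Actg2, Actb and Actg1 at d12, 16.6% at d16, 6.78% on d24 and 4.25% in the adult. Actg2 took 1.46%, 1.01%, 6.66% and 27.9%. Smooth muscle actin as a whole therefore had a larger share in the adult library than at d12, with the weight moved from Acta2 to Actg2. The ratio of Actg2 to Acta2 was 0.0839 at d12 (0.0710 to 0.0985), 0.0608 at d16 (0.0490 to 0.0745), 0.982 on d24 (0.919 to 1.05) and 6.57 in the adult (6.07 to 7.13). At d24 both genes were level within counting error, and the order was inverted in the adult.

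**Figure D2:**
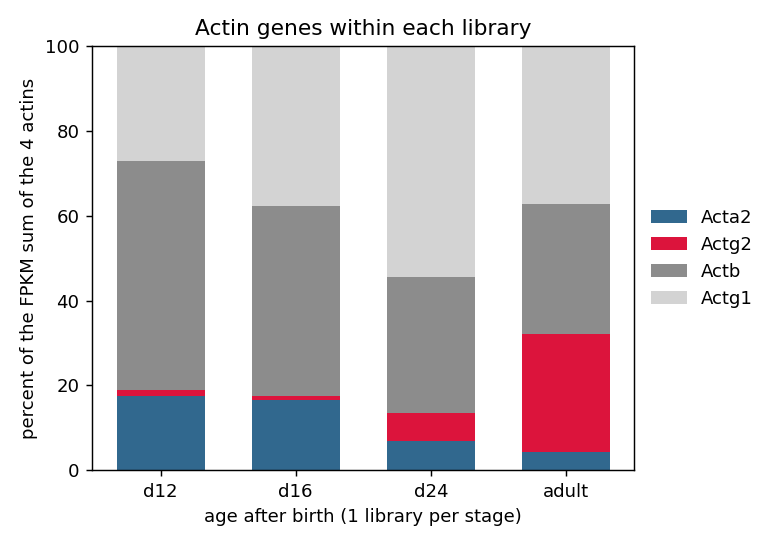
Share of Acta2, Actg2 and the cytoplasmic actins Actb and Actg1 in the summed FPKM of the 4 genes, in percent, at d12, d16, d24 and in adult testis (1 library per stage). The band of Acta2 narrows from 17.4% to 4.25%, and that of Actg2 widens from 1.46% to 27.9%.

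The thick filament and its switch are represented by Myh11, Myl9 and Mylk. Myh11, the smooth muscle myosin heavy chain (chromosome 16, 14194527 to 14292188, minus strand), had 85.2 FPKM at d12 (83.3 to 87.3), 65.9 at d16 (64.1 to 67.7), 36.3 on d24 (35.4 to 37.3) and 27.6 in the adult (26.2 to 28.9). It fell to 0.323 times its d12 level (0.306 to 0.341), and with 7036 fragments at d12 it is the most precisely counted of the 9. Its deposited values step down at every age, with no overlap of intervals, but on the Sertoli scale the last step turns upward.

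Myl9 encodes the regulatory light chain that the kinase phosphorylates (chromosome 2, 156775408 to 156781657, plus strand). Its level was 129 FPKM at d12 (123 to 135), 103 at d16 (97.7 to 109), 53.9 on d24 (51.0 to 56.9) and 52.5 in the adult (48.0 to 57.3). Myl9 was the highest of the 9 at d12, d16 and d24. Its d24 and adult values as deposited did not differ beyond counting error, at a ratio of 0.974 (0.877 to 1.08). This step had a log2 ratio of -0.52 with equal FPKM sums, -0.29 with the upper quartile and 0.46 on the Sertoli scale. The adult level was 0.408 times that of d12 (0.369 to 0.451).

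Mylk, the kinase itself (chromosome 16, 34745199 to 35002436, plus strand), is also used outside muscle. It measured 32.5 FPKM at d12 (31.4 to 33.7), 24.2 at d16 (23.2 to 25.2), 14.3 on d24 (13.7 to 14.8) and 11.9 in the adult (11.1 to 12.7). As deposited the kinase gene was lower at each age than at the one before, with ratios of 0.743, 0.590 and 0.832, while its last step turns upward on the Sertoli scale, and in the adult it had fallen to 0.365 times its d12 level (0.338 to 0.395). Of the 9 it came nearest to the median profile of the group. The locus also makes telokin, a short form from the 3' end, and the gene level does not separate the forms.

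Among the proteins that lie along the actin filament, Tpm2, beta-tropomyosin (chromosome 4, 43513726 to 43523583, minus strand), had 33.9 FPKM at d12 (31.7 to 36.1), 25.03 at d16 (23.1 to 27.01), 15.1 on d24 (14.0 to 16.2) and 10.7 in the adult (9.27 to 12.3). It was lower at every age than at the age before, and the adult stood at 0.316 times d12 (0.270 to 0.369). Its 3 curated transcripts run from 2108 to 3250 bases, and the intervals use the shortest, which makes them the widest.

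Tagln encodes transgelin, or SM22, an early marker of smooth muscle (chromosome 9, 45929628 to 45936058, minus strand). Tagln stood at 36.4 FPKM at d12 (33.8 to 39.1), 33.5 at d16 (31.1 to 36.2), 15.0 on d24 (13.8 to 16.4) and 14.3 in the adult (12.4 to 16.4). Here most of the difference lay between d16 and d24, where the gene fell to 0.447 times its earlier level (0.398 to 0.503). As deposited, neither the first nor the last interval showed a difference beyond counting error, with ratios of 0.923 (0.829 to 1.03) and 0.952 (0.805 to 1.12). The last had a log2 ratio of -0.55 with equal FPKM sums and -0.32 with the upper quartile. On the Sertoli scale the first was 0.25 and the last 0.42.

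Cnn1, calponin of differentiated smooth muscle (chromosome 9, 22099221 to 22109221, plus strand), was much lower, with 8.80 FPKM at d12 (7.68 to 10.1), 6.68 at d16 (5.71 to 7.78), 4.08 on d24 (3.50 to 4.72) and 3.84 in the adult (2.98 to 4.87). Only 68 fragments support the adult value, and as deposited d24 and adult cannot be told apart at this depth. For this step the log2 ratio was -0.55 with equal FPKM sums and 0.40 on the Sertoli scale. From d12 to adult it fell to 0.436 of its level (0.327 to 0.575).

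Des, the gene of desmin (chromosome 1, 75360292 to 75368579, plus strand), was the lowest of the 9 in every library, although desmin is a common stain for peritubular myoid cells. It had 4.72 FPKM at d12 (4.05 to 5.46), 3.91 at d16 (3.32 to 4.60), 2.51 on d24 (2.15 to 2.92) and 2.71 in the adult (2.13 to 3.40). The adult value was 0.574 times that of d12 (0.432 to 0.757), short of the 2-fold limit, so Des is the member counted neither as lower nor as higher on the deposited scale. With equal FPKM sums (log2 ratio -1.96) and with the upper quartile (-1.68) it was counted as lower. Its direction turned on the Sertoli scale (0.59), where it was short of the limit. Between d24 and adult the deposited ratio was 1.08 (0.810 to 1.43), no difference at this depth. The log2 ratio of this step was -0.35 with equal FPKM sums and 0.59 on the Sertoli scale, so it depends on the scale.

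Some transcripts overlap those of genes on the opposite strand. Of the 50-base stretches of Des, 5.80% lie in Gm15179, of those of Tagln 3.06% in Pcsk7, and of those of Mylk 2.47% in E130310I04Rik, each in reverse direction. By gene span Actg2 also overlaps Gm38844, Tpm2 overlaps Car9 and Mylk overlaps 1700119H24Rik, each on the opposite strand. The stretches were compared with curated transcripts only. The libraries were strand-specific. Myh11 shares 0.397% of its stretches with the non-muscle heavy chains Myh9 and Myh10, and Cnn1, Myl9 and Tpm2 share none with any other gene.

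The order of the levels hardly moved among the 8 genes other than Actg2. At d12 it ran from Myl9 through Acta2, Myh11, Tagln, Tpm2, Mylk, Actg2 and Cnn1 to Des, a span of 27.3 times between the ends. The neighbours Tagln and Tpm2, Tpm2 and Mylk, and Actg2 and Cnn1 had overlapping intervals there. At d16 Myl9 and Acta2 overlapped, as did Tpm2 and Mylk, and Cnn1 and Actg2. At d24 Actg2 had moved up between Acta2 and Myh11, overlapping the former, and Tpm2, Tagln and Mylk formed a run of overlapping neighbours. In the adult Actg2 led, followed by Myl9, Acta2, Myh11, Tagln, Mylk, Tpm2, Cnn1 and Des, with overlaps between Tagln and Mylk, Mylk and Tpm2, and Cnn1 and Des.

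Ratios of members to Acta2 in the same library give the make-up of the contractile set free of scaling. Myh11 stayed between 0.693 and 0.805 of Acta2, so that its largest ratio was 1.16 times its smallest. Tpm2 varied by 1.21 times, Tagln by 1.32, Mylk by 1.37, Myl9 by 1.42, Cnn1 by 1.60 and Des by 1.92. For Actg2 the same figure was 108. The summed FPKM of the 9 went from 453 at d12 to 363 at d16, 235 on d24 and 383 in the adult, while the 8 without Actg2 summed to 443, 357, 188 and 158. Actg2 made up 2.09% of the sum of the 9 at d12, 1.59% at d16, 19.8% on d24 and 58.8% in the adult, so a summed score over these 9 genes turns upward at the last stage because of 1 gene.

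Most muscle forms have a non-muscle relative that other testis cells use, and the ratio within a library again needs no scaling. Acta2 relative to Actb was 0.324 at d12 (0.311 to 0.337), 0.370 at d16 (0.354 to 0.386), 0.211 on d24 (0.202 to 0.220) and 0.139 in the adult (0.129 to 0.150). Myh11 relative to the sum of Myh9 and Myh10 was 1.61, 1.57, 0.800 and 0.759 in that order, with an adult interval of 0.712 to 0.808. Both ratios were lower at d24 and in the adult than at the first 2 stages.

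The denominators themselves moved apart. Myh9 had 36.8 FPKM at d12 and 7.32 in the adult, whereas Myh10 had 16.2 and 29.0. Against Myh9 alone Myh11 was 2.32 times as high at d12 (2.23 to 2.42) and 3.77 times in the adult (3.40 to 4.18), so the direction turns with the relative chosen.

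Other pairs differed from these. Cnn1 relative to Cnn3 was 0.277 at d12 (0.237 to 0.322), 0.379 at d16, 0.662 on d24 and 1.56 in the adult (1.05 to 2.33). The non-muscle calponin Cnn3 itself went from 31.8 FPKM at d12 to 2.46 in the adult. Tagln over Tagln2 was 4.31 at d12 (3.60 to 5.18), 10.3 at d16, 6.00 on d24 and 8.80 in the adult (5.55 to 14.7), and Tagln was the higher of the pair in all 4 libraries. Myl9 over the sum of Myl12a and Myl12b was 1.06 at d12 (0.996 to 1.14), 1.21 at d16, 0.918 on d24 and 1.07 in the adult (0.942 to 1.21), level at both ends of the series.

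Tpm2 relative to Tpm4 was 0.555 at d12 (0.511 to 0.603), 0.816 at d16, 1.05 on d24 and 0.807 in the adult (0.666 to 0.975). Tpm3, another relative, had 98.7 FPKM at d12 and 70.2 in the adult, so Tpm2 lost ground against it, and here too the direction turns with the relative chosen. Des relative to vimentin (Vim), the intermediate filament of most mesenchymal and Sertoli cells, was 0.0185 at d12 (0.0159 to 0.0215), 0.0222 at d16, 0.0259 on d24 and 0.0366 in the adult (0.0286 to 0.0463). Vimentin transcripts thus outnumbered those of desmin per length by 53.9 times at d12 and 27.3 times in the adult. Among the 14 non-muscle relatives listed, 13 passed the limit on low values, and 8 of these were at least 2-fold lower in the adult than at d12, against 23.1% of all genes, and none higher, against 35.7%.

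Other structural proteins of the contractile apparatus followed the 8 genes. Of 16 such partners 14 could be counted, and from d12 to adult 10 fell and 1 rose at least 2-fold, against 23.1% and 35.7% of all genes, with a median log2 ratio of -1.54 as deposited and -0.14 on the Sertoli scale. Tpm1, alpha-tropomyosin, went from 156 FPKM at d12 to 123 at d16, 56.0 on d24 and 42.2 in the adult, and stood above Tpm2 in every library. Caldesmon (Cald1), which holds myosin back from actin, went from 45.6 to 31.2, 16.7 and 14.6. Leiomodin (Lmod1), a nucleator of actin filaments in smooth muscle, had 10.7, 9.33, 4.55 and 3.61. The partner that rose was tensin 1 (Tns1), an adhesion protein, with 5.27 FPKM at d12, 4.29 at d16, 13.3 on d24 and 37.7 in the adult, lowest at d16 as Actg2 was.

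Genes that switch contraction on and off moved both ways. Of 16, 15 were counted, 5 of which fell at least 2-fold from d12 to adult, against 23.1% of all genes, and 3 of which rose, against 35.7%. Their median log2 ratio was -0.64 as deposited, -1.86 with equal FPKM sums, -1.57 with the upper quartile and 0.76 on the Sertoli scale. All 3 that rose encode calmodulin, the calcium sensor that activates the kinase. Calm2 had 650 FPKM at d12 and 1629 in the adult, against a fall of Mylk over the same ages as deposited. Both sides of this contrast depend on the scale. Calm2 rose 2.50 times while the FPKM sum of all genes went from 283580 to 659202. The log2 ratio of Mylk on the Sertoli scale was -0.045. The genes that fell were Rock2, a kinase that inhibits myosin phosphatase, the calcium release channel Itpr1, the cyclic GMP phosphodiesterase Pde5a and both subunits of the nitric oxide receptor, Gucy1a3 and Gucy1b3. Gucy1a3 measured 9.32, 5.79, 2.23 and 2.39 FPKM from d12 to adult. The phosphatase subunits Ppp1r12a, at 109 FPKM at d12 and 69.7 in the adult, and Ppp1cb, at 72.6 and 57.8, did not reach the limit.

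Receptors that act on peritubular cells were mostly lower in the adult too, as deposited. Of 9 receptors, 8 were counted, and 5 fell and 1 rose at least 2-fold from d12 to adult, beside 23.1% and 35.7% of all genes. The list median was -1.67 as deposited and -0.29 on the Sertoli scale. Ednra, a receptor through which endothelin contracts these cells, had 9.29 FPKM at d12, 5.31 at d16, 2.34 on d24 and 2.34 in the adult. The receptor for hedgehog ligands, Ptch1, went from 13.2 FPKM to 8.10, 3.31 and 1.46, and Pdgfra from 59.1 to 35.3, 14.3 and 7.68. The angiotensin receptor Agtr1a rose from 0.210 FPKM at d12 to 0.525, 2.89 and 4.76. Its d12 and d16 values rest on only 6 and 15 fragments. Of 4 ligands, 3 were counted. From d12 to adult, as deposited, Edn1 and Dhh fell at least 2-fold, against 23.1% of all genes, and none rose, against 35.7%.

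Serum response factor, the transcription factor best known for driving smooth muscle genes, showed no such decline as deposited. Srf had 6.61 FPKM at d12, 5.43 at d16, 5.79 on d24 and 6.90 in the adult. Of the 5 genes of the factor and its partners, 4 were counted. From d12 to adult none fell at least 2-fold, against 23.1% of all genes, and 1, Mkl1, rose, against 35.7%. Their median log2 ratio from d12 to adult depends on the scale, at -0.075 as deposited, -1.28 with equal FPKM sums, -0.99 with the upper quartile and 1.32 on the Sertoli scale. Myocardin (Myocd), its partner in smooth muscle, stayed under the limit on low values, with 0.676 FPKM at d12, 0.547 at d16, 0.320 on d24 and 0.0901 in the adult.

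**Figure D3:**
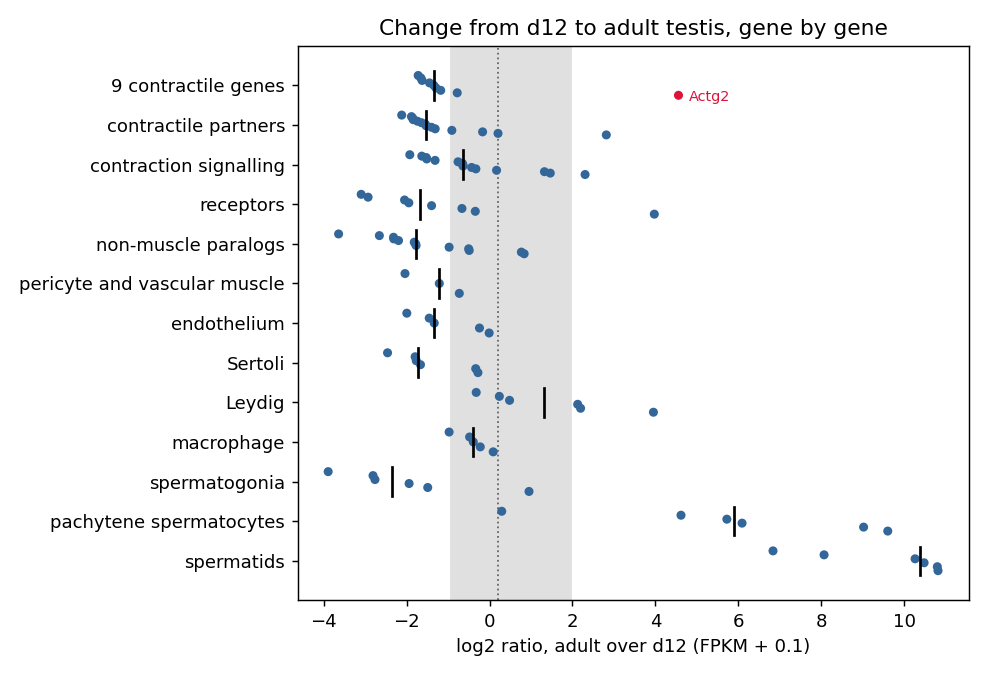
Log2 ratio of adult over d12 (FPKM + 0.1) for each counted gene, 1 dot per gene, in the 9 contractile genes and in lists of related genes and cell type markers. Black bars are list medians, the dotted line is the median of all genes counted (0.20), and the grey band runs from their lower to their upper quartile (-0.92 to 1.96). Actg2 lies at 4.56, and the other contractile genes between -1.72 and -0.78.

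Markers of other cells moved over the same ages, and their part in the result was not tested. Sertoli cells, which do not divide after early postnatal life, lie inside the same tubule wall. All 6 of their markers were counted. From d12 to adult 4 fell and none rose at least 2-fold, against 23.1% and 35.7% of all genes. They summed to 220 FPKM at d12, 175 at d16, 123 on d24 and 98.1 in the adult, with Cldn11 the most abundant on average and none at 0. The geometric mean of the 8 contractile genes without Actg2 was 1.44 times that of the Sertoli markers at d12, 1.48 at d16, 1.20 on d24 and 1.46 in the adult, so this proportion stayed between 1.20 and 1.48. The Sertoli list is uneven, since Rhox5 had 20.3 FPKM at d12 and 16.7 in the adult while Sox9 had 12.2 and 2.14.

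Vessel walls hold smooth muscle too. Of 8 markers of pericytes and vascular smooth muscle, 3 reached the limit. From d12 to adult 2 of them, Rgs5 and Mcam, fell at least 2-fold, against 23.1% of all genes, and none rose, against 35.7%. The 8 summed to 42.0 FPKM at d12, 29.7 at d16, 15.1 on d24 and 12.4 in the adult, most of it from Mcam, and none was at 0. Rgs5 had 7.59 FPKM at d12 and 3.22 in the adult, and Notch3 had 0.653 and 0.141. The geometric mean of the 8 contractile genes was 20.5, 25.9, 19.7 and 25.6 times that of this list from d12 to adult.

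Endothelial markers had 5 of 6 genes counted. From d12 to adult 3 fell and none rose at least 2-fold, against 23.1% and 35.7% of all genes. They summed to 21.9, 15.6, 7.64 and 9.74 FPKM, and none was at 0. Cdh5 was the most abundant on average, though below Tek in the adult. The shares of vascular and peritubular muscle in the contractile genes cannot be told apart in these libraries. Markers of striated muscle were low but not all absent, with Myh1 at 1.07 FPKM at d12, 1.17 at d16, 1.05 on d24 and 0.633 in the adult. None of the 10 reached a mean of 1 FPKM, they summed to at most 5.31 FPKM in a library, and Acta1, Ckm and Tnnt3 were at 0 in the adult.

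Leydig cell markers, from the steroid-producing cells between the tubules, rose in part. All 6 were counted, and 3 of them, Insl3, Cyp17a1 and Cyp11a1, rose at least 2-fold from d12 to adult, against 35.7% of all genes, and none fell. Star was lower in the adult (log2 ratio -0.32), and Lhcgr (0.24) and Hsd3b1 (0.48) stayed short of the limit. The list median was 1.30 as deposited, 0.091 with equal FPKM sums and 0.38 with the upper quartile. The 6 markers summed to 132, 82.4, 153 and 581 FPKM, with Insl3 the most abundant on average, Hsd3b1 at d12 and Cyp17a1 at d16, and none at 0. The 8 contractile genes had 2.24 times their geometric mean at d12 and 0.313 times in the adult. As deposited, macrophage markers had 5 of 6 counted, none lower or higher past the limit, against 23.1% and 35.7% of all genes. They summed to 27.8, 29.5, 26.6 and 24.5 FPKM, with Mrc1 the most abundant and none at 0. Their median log2 ratio was -0.39 as deposited, but -1.55 with equal FPKM sums, -1.28 with the upper quartile and 0.96 on the Sertoli scale.

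Germ cell markers frame the rise of Actg2. The 6 spermatogonial markers summed to 222 FPKM at d12, 125 at d16, 66.8 on d24 and 47.9 in the adult. Uchl1 was the most abundant and none was at 0. From d12 to adult 5 of 6 fell at least 2-fold, against 23.1% of all genes. Of the 6 pachytene spermatocyte markers 5 rose at least 2-fold, against 35.7% of all genes. Their sums were 473, 1762, 4679 and 5568 FPKM, and most of the increase lay before d24. Ldhc was the most abundant on average but Sycp3 at d12 and d16, and none was at 0. The 6 spermatid markers all rose at least 2-fold from d12 to adult, against 35.7% of all genes. They summed to 9.02 FPKM at d12, 15.4 at d16, 1383 on d24 and 11593 in the adult. Prm1 was the most abundant except at d16, where Acr was, and Acrv1 was listed at 0 at d16. From d12 to d16 Odf1, Tnp1 and Prm1 fell at least 2-fold, against 3.67% of genes, and Acr rose, against 12.6%. These falls rest on few fragments, 17 and then 6 for Prm1.

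Actg2 had reached 20.7% of its adult level at d24. Among the spermatid markers this share was 8.33% for Prm1, 11.1% for Tnp1, 17.6% for Odf1, 34.0% for Acrv1, 43.8% for Spaca1 and 78.2% for Acr. Among the Leydig markers Insl3 stood at 18.6%, Cyp17a1 at 24.8%, Cyp11a1 at 33.4%, Hsd3b1 at 47.8%, Lhcgr at 71.0% and Star at 73.4%. Below the share of Actg2 lay 3 of the 6 spermatid markers and 1 of the 6 Leydig markers. At d12 Actg2 had 9.47 FPKM where the highest of the spermatid markers, Prm1, had 3.39, and at d16 it had 5.78 where the highest, Acr, had 10.0. Which cells held the Actg2 transcripts was not tested.

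Among 9475 other genes averaging 5 FPKM or more, the 10 whose profile lay closest to the median profile of the 9 were Timp3, Nckap1, Tacc2, Crot, Tgif2, Casp6, Gm364, Tgm2, Kank1 and Vsig10. Likeness was the root mean square difference of log2 values over the 4 libraries, each gene centred on its own mean. Timp3, an inhibitor of matrix proteases, was nearest at 0.01 log2 units, with 48.8 FPKM at d12, 38.8 at d16, 22.4 on d24 and 19.0 in the adult. The tenth, Vsig10, was at 0.03. Of the 9 themselves Mylk lay at 0.03, with 18 other genes nearer than it, and Actg2 at 2.59, with 8133 nearer. With 4 points per profile many genes of different kinds come this close. Gapdh, the reference gene of the study's RT-qPCR assays, had 68.9 FPKM at d12, 42.6 at d16, 19.1 on d24 and 20.0 in the adult, so it too was lower in the adult than at d12.

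Because 8 of the genes moved together, the 250 bases before the start of a curated RefSeq transcript were searched on both strands for short elements. The CArG box and CATTCC are known from smooth muscle promoters, and TATAAA and CACGTG were searched beside them. The search used a set of 27025 promoters, matched by gene symbol. It held entries for 6 of the 9, Acta2, Des, Cnn1, Myl9, Mylk and Tpm2, and not for Myh11, Tagln and Actg2. These last 3 do have curated RefSeq transcripts, but their promoters were not looked for elsewhere. The CArG box, the element bound by serum response factor, occurred in the exact form in 1 of the 6, Myl9, and in 1.40% of 27025 promoters (1.19% of the 10387 whose genes passed the limit on low values, with this second share given in parentheses below). With 1 base of its A/T core changed or none it occurred in 2 of the 6, Acta2 and Myl9, each at 2 places, and in 8.65% of promoters (7.96%). CATTCC, the core of the muscle element bound by TEAD factors, occurred in Acta2 and Mylk and in 12.6% of promoters (10.98%). TATAAA, found in 13.0% (6.55%), and the E-box CACGTG, found in 6.05% (8.23%), occurred in none of the 6. The counts are a description of these letters, and whether any factor bound there was not tested.

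The windows that hold the CArG box matches are shown, since Acta2 and Myl9 are the most abundant of the genes that fell, with the match in capitals and the strand of the gene. They come from RefSeq on GRCm38.p6, at chr2:156775293-156775322 and chr2:156775355-156775384 on the plus strand for Myl9, and at chr19:34255438-34255467 and chr19:34255388-34255417 on the minus strand for Acta2. Distances count from the first base of the curated transcript, 156775464 for Myl9 and 34255373 for Acta2. The first match of Myl9 is the exact form and begins 161 bases before that base, and the other 3 have 1 changed base and begin 99 bases before it in Myl9 and 84 and 34 in Acta2. The gene span of Acta2 given above reaches farther, so that both of its windows lie within it.
Myl9, exact form: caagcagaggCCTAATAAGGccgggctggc
Myl9, changed form: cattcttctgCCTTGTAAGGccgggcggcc
Acta2, distal: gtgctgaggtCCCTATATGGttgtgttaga
Acta2, proximal: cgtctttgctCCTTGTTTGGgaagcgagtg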

How the data were processed

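The authors aligned the paired reads by TopHat2 2.1.0, running Bowtie 1.1.2, against GRCm38/mm10, and deposited FPKM values per RefSeq gene from Cuffdiff of Cufflinks 2.2.1, with corrections for multiply matching reads and sequence bias. The scaling between libraries inside Cuffdiff is not given in the sources used here. The 4 RNA columns were taken by name. Log2 ratios used a pseudocount of 0.1 FPKM and genes averaging 1 FPKM or more (python 3.11.15, numpy 2.4.6, pandas 2.3.3, scipy 1.17.1).

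Fragments were recovered as whole multiples of the smallest step of FPKM times transcript length, in genes with 1 curated transcript. Among values up to 20 fragments, 91.8% to 92.4% per library lay within 0.05 of a whole number. For genes with several transcripts the shortest was used. Intervals are exact Poisson, and Clopper-Pearson for ratios. The recovery of the step and the 2-fold calls were tested on simulated data.

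Genes named are the 9 members, genes of the lists of partners, signalling, receptors, ligands, serum response factor partners, relatives and cell type markers, the 10 nearest profiles, and Gapdh. Overlapping genes and the genes nearest to Actg2 were added after values were seen, as were the motifs. Members and lists were chosen with earlier results of these data known. Alternatives were pseudocounts of 1 and 0.01 FPKM, 3 other scalings, a 1.5-fold limit, no filter on low values and, added after the values were seen, the 8 genes without Actg2.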

Additional observations from a re-analysis of the deposited data

How the results depend on the processing

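No paired analysis was possible because each stage has 1 library. The other pseudocounts left every median of the 9 genes within its counting interval. With 1 FPKM in place of 0.1, 1 gene and not 2 fell from d16 to d24, against 4.09% of all genes. At a 1.5-fold limit 1 gene fell from d12 to d16, against 13.4% of all genes. With this limit 8 fell from d16 to d24, against 22.4%, and 8 from d12 to adult, against 32.6%. Dropping the filter changed no count of the 9. With equal FPKM sums the medians were -0.49 from d12 to d16, -1.37 from d16 to d24 and -0.55 from d24 to adult. From d12 to adult the median was -2.55, and 8 genes fell from d16 to d24, against 30.2% of all genes. With the upper quartile the medians were -0.52, -1.28, -0.33 and -2.27 in the same order. Again 8 fell from d16 to d24, against 26.5%. On both scales 8 and not 7 fell from d12 to adult, against 49.9% of all genes with equal sums and 43.8% with the upper quartile. On the Sertoli scale the medians were -0.0070, -0.21 and 0.40 for the 3 intervals in order, and from d12 to adult the median changed sign, to 0.060. None of the 9 was then called lower from d16 to d24 (0, against 1.63% of all genes) or from d12 to adult (0, against 3.46%). Single values that changed sign on this scale from d12 to adult were 0.21 for Cnn1, 0.060 for Tagln, 0.11 for Myl9 and 0.59 for Des, and the medians of Cnn1, Tagln and Tpm2 together (0.060), of contraction signalling (0.76), of serum response factor and its partners (1.32), of the pericyte and vascular muscle markers (0.17), of the macrophage markers (0.96) and of the endothelial markers (0.011). This scale divides by markers that themselves fell. Without Actg2, 0 of the 8 were called higher from d16 to d24, from d24 to adult and from d12 to adult. The shares of all genes were 27.5%, 11.4% and 35.7%. Depth limits Cnn1 and Des most, with 68 and 74 fragments in the adult.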

Other observations

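Genes with a course like that of Actg2 were listed after its values had been seen, by the same measure of likeness. The nearest of 9475 was Cdc14a, a phosphatase gene, at 0.04 log2 units, with 3.84 FPKM at d12, 2.28 at d16, 17.6 on d24 and 89.7 in the adult. It was followed by Acsl1, an enzyme that activates fatty acids, with 8.52, 6.29, 43.6 and 239 FPKM, and by Akap1, an anchor for protein kinase A at mitochondria, with 7.85, 5.96, 48.0 and 258.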
